A study of Mus musculus with 21 samples.

Results

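The data described here compare GFPpos with GFPneg CD4 T cells of 1 culture, IL-1b+IL-6+IL-23, in 6 of the 21 libraries of a bulk RNA sequencing series. There were 3 libraries of each sort, and all 6 were kept. Naive CD4 T cells (CD44 low, CD62L high, CD25-) came from spleen and lymph nodes of mice with 1 wild-type Il23r allele and 1 allele that carries an IRES-eGFP reporter and makes no working receptor. Every library of both sorts carries this heterozygous genotype. The cells were stimulated with plate-bound antibodies against CD3 and CD28 for 5 days with IL-1b at 20 ng/ml, IL-6 at 25 ng/ml and IL-23 at 20 ng/ml, and were then sorted by eGFP. GFPneg cells therefore had the same genotype, antibodies and cytokines as GFPpos cells and differed by the sort alone. The labels give neither an age nor the number of mice or cultures behind the replicates, so the p-values reflect no more than the spread among these 6 libraries, part of which may be technical. Of 23415 genes in the table, 8453 had at least 1 TPM in at least 3 of the 6 libraries and were tested. TPM is transcript abundance per transcript length, scaled to the same total in every library.

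IL-23 acts on T cells through a receptor made of the Il23r and Il12rb1 chains, which signals through JAK2, TYK2 and STAT3. With IL-6 and IL-1b it drives and sustains Th17 cells, which make IL-17A, IL-17F and IL-22. The nuclear receptor RORa (Rora) is among the factors that drive these genes. The eGFP signal reports transcription of the Il23r locus, and the comparison asks what else differs between cells of 1 culture with and without it.

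The 6 libraries were alike in most measures. Between 11538 and 11923 genes lay above 0 in GFPpos libraries and between 10384 and 11613 in GFPneg libraries, and ribosomal protein genes held 34.51% to 41.04% of TPM in GFPpos and 34.08% to 39.92% in GFPneg. GFPneg replicate 1 stood apart. Its correlation with the other 5 libraries on log2(TPM + 1) was 0.953 to 0.96, whereas all other pairs lay between 0.97 and 0.978, and its summed TPM of 14 MHC class I genes was 40425, against 19717 to 26963 in GFPpos and 29414 and 26439 in GFPneg replicates 2 and 3. Calls lost without this library are named where they are given. T cell genes were present in every library, with Cd4 at 83.6 to 93.2 TPM in GFPpos and 70.7 to 101.5 TPM in GFPneg, and Cd8a was listed at 0 in all 6. Cd8b1, the other CD8 chain, was not, with 9.15, 12.4 and 7.83 TPM in GFPpos and 17.4, 7.81 and 10.4 TPM in GFPneg, and the 5 CD8 T cell markers summed to 8.76 to 13.3 TPM in GFPpos and 8.79 to 17.9 TPM in GFPneg. Of 10 B cell markers, 14 myeloid and dendritic markers and 10 natural killer markers, 4, 9 and 6 had no value above 0. Cd79a, Lyz2, Itgam, Itgax, Ncr1 and Klrb1c were listed at 0 throughout, but other markers were not. Ighm (B cells) had 3.7, 3.55 and 5.24 TPM in GFPpos and 8.05, 7.87 and 4.95 TPM in GFPneg. Cd68 (myeloid cells) had 1.03 to 1.64 TPM in GFPpos and 1.21 to 2.52 TPM in GFPneg. Gzma (natural killer cells) was listed at 0 in GFPpos and at 1.18, 1.25 and 1.33 TPM in GFPneg. Csf3r (neutrophils) had 6.29, 3.79 and 5.05 TPM in GFPpos and 9.24, 6.73 and 6.79 TPM in GFPneg. The markers of B cells summed to 20.0 to 29.4 TPM in GFPpos and 19.7 to 24.7 TPM in GFPneg, mostly from Ebf1, and those of myeloid and dendritic cells to 448 to 542 TPM in GFPpos and 438 to 503 TPM in GFPneg, mostly from Cst3. Natural killer markers summed to 0 to 0.18 TPM in GFPpos and 1.18 to 2.22 TPM in GFPneg. Of 12 gamma-delta and innate-like T cell markers in the table, 8 had no value above 0, among them Tcrg-C1, Sox13 and Zbtb16. The others summed to 1.23 to 2.15 TPM in GFPpos and 0.37 to 0.73 TPM in GFPneg, and Maf held 0.89 to 1.79 TPM of the GFPpos sums. Trdc, the constant gene of the T cell receptor delta chain, was at 0.44, 0.34 and 0.36 TPM in GFPpos, and all GFPneg libraries list it at 0. The part of these low marker levels in the results was not tested. In bulk samples, fewer cells that make a transcript and less of it per cell cannot be told apart.

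The sorting marker separated the sorts and is no finding. The reporter row, EGFP_IRES_IL23R, had 21.2, 17.4 and 32.3 TPM in GFPpos and 0, 1.53 and 1.74 TPM in GFPneg. Il23r had 21.7, 24.9 and 38.9 TPM in GFPpos against 7.33, 6.02 and 7.56 TPM in GFPneg. The means were 28.5 ± 9.12 TPM in GFPpos and 6.97 ± 0.831 TPM in GFPneg (SD, n = 3 each), so GFPneg cells still held Il23r transcript. Reads of the reporter row and of Il23r may be shared, and their separate values are uncertain.

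Few genes differed beyond the spread, and most of them were higher in GFPpos. With an adjusted p under 0.05 in limma's moderated test on log2(TPM + 1), 32 of 8453 genes were called, which is 0.379% of those tested. Of these, 25 (0.296%) rose and 7 (0.0828%) fell in GFPpos cells. The small number does not mean that the rest were alike, since 791 genes (9.36%) had an unadjusted p under 0.05. All 3 GFPpos values lay above all 3 GFPneg values for 839 genes (9.93%) and below them for 415 (4.91%). The median log2 change over all genes tested was 0.0723, and 5053 of the 8453 lay above 0.

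**Figure D1:**
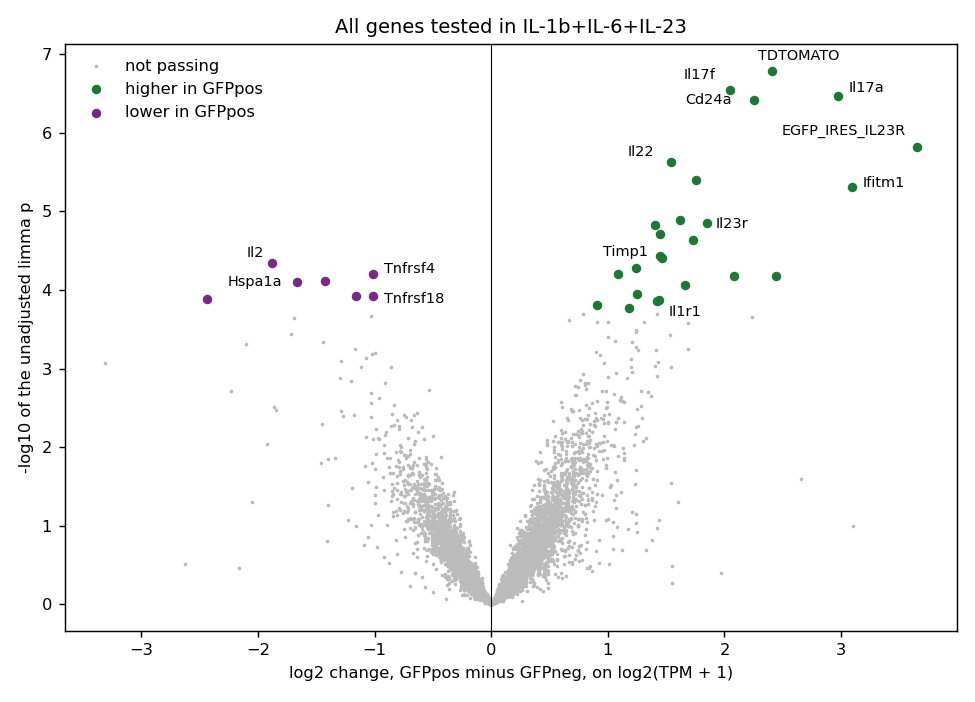
Each point is 1 of the 8453 genes tested, with the log2 change of GFPpos minus GFPneg cells on the x axis and -log10 of the unadjusted limma p on the y axis. The 25 genes called higher in GFPpos (green) include Il17a, Il17f, Il22, Cd24a and Ifitm1, and the 7 called lower (purple) include Il2, Tnfrsf4, Tnfrsf18 and Hspa1a.

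Among the cytokine genes, Il17a, Il17f, Il22 and Il24 rose in GFPpos cells and Il2 fell. Il17a, which encodes IL-17A, an inducer of neutrophil-attracting chemokines in epithelium and stroma, had 615, 697 and 1199 TPM in GFPpos and 81.6, 89.8 and 142 TPM in GFPneg. The lowest GFPpos value lay far above the highest GFPneg value. The means were 837 ± 316 TPM in GFPpos and 104.3 ± 32.6 TPM in GFPneg (SD, n = 3 each), and the log2 change was 2.97 ± 0.27 (SE, limma adjusted p = 0.000815).

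Il17f, whose product pairs with itself or with IL-17A, was far more abundant. It had 6082, 9475 and 9681 TPM in GFPpos and 1775, 2233 and 1988 TPM in GFPneg, with a log2 change of 2.05 ± 0.18 (limma adjusted p = 0.000815). GFPneg cells thus held more Il17f per transcript length than GFPpos cells held Il17a. The ratio of Il17f to Il17a TPM, looked at after the values were seen, was 9.89, 13.59 and 8.07 in GFPpos and 21.76, 24.87 and 14.03 in GFPneg. The sorts did not overlap in this ratio, and the two-sided exact permutation p was 0.1, the smallest that 3 against 3 allows.

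Il17a and Il17f are neighbours on chromosome 1 in GRCm38 (GENCODE M21), at 20730905 to 20734496 (plus strand) for Il17a and 20777146 to 20790617 (minus strand) for Il17f. Il23r occupies 67422932 to 67491855 of chromosome 6 and Il2 37120523 to 37125959 of chromosome 3, both on the minus strand. The 250 bases before their RefSeq starts (GRCm38.p6) are shown because both Il17 genes rose with the reporter at the Il23r locus and Il2 fell. The windows are chr1:20730655-20730904 (plus), chr1:20784271-20784520 (minus), chr6:67491856-67492105 (minus) and chr3:37125955-37126204 (minus), each 5′ to 3′ along its gene. Capitals mark AGGTCA, the core that RORa binds, or its complement TGACCT.
Il17a: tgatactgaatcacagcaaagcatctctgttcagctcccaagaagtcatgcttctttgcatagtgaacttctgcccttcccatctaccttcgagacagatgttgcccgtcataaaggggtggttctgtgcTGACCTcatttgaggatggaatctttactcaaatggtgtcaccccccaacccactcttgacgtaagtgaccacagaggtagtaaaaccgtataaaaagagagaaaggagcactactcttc
Il17f: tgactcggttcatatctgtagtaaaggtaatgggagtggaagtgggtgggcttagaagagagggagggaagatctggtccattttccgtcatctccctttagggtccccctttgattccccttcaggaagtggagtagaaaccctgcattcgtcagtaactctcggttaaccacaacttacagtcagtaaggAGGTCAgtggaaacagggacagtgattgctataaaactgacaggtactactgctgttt
Il23r: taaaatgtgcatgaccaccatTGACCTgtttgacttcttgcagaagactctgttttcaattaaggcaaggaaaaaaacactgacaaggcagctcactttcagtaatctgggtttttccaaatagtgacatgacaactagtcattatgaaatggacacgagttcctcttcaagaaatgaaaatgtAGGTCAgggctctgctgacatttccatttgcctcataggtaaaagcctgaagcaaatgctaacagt
Il2: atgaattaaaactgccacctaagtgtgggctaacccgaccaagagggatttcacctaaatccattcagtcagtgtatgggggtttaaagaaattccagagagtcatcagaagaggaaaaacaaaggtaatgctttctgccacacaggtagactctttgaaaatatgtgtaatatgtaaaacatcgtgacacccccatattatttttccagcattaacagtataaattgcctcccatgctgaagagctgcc
The core stood 1 time in the Il17a and Il17f windows, 2 times in the Il23r window and 0 times in the Il2 window. On either strand it was in 14.0% of all 32851 such windows, so a single match is common. RefSeq windows were found for 19 of the 32 called genes, and 5 of 14 that rose held the core (Il17a, Il17f, Il23r, Serpinf1 and Gnpda2) against 0 of 5 that fell. A STAT motif, TTCNNNGAA, was in 7.02% of all windows, in 0 of the 14 and in 1 of the 5 (Tnfrsf18). An AP-1 motif, TGANTCA, was in 6.75% of all windows, in 3 of the 14 (Il17a, Upp1 and Tnfrsf8) and in 0 of the 5. These matches are descriptions of letters in short windows.

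Il22, whose product acts on epithelial cells in barrier defence, had 299, 281 and 251 TPM in GFPpos and 109.7, 96.3 and 80.3 TPM in GFPneg, a log2 change of 1.54 ± 0.17 (limma adjusted p = 0.00326). Iltifb, a near-identical copy of Il22 that may share its reads, had 20.5, 9.77 and 14.6 TPM in GFPpos against 1.15, 5.52 and 1.46 TPM in GFPneg and missed the threshold (limma adjusted p = 0.052). Il24, which encodes another member of the IL-10 family, had 206, 280 and 307 TPM in GFPpos and 83.9, 116.9 and 87.6 TPM in GFPneg. Il22 occupies 118204942 to 118210047 of chromosome 10 (plus strand), and Il24 130882074 to 130887454 of chromosome 1 (minus strand). The log2 change of Il24 was 1.45 ± 0.20 (limma adjusted p = 0.0137), and the call was lost without GFPpos replicate 2 (0.0668) or GFPpos replicate 3 (0.0635). No GFPpos value of these 3 genes lay within the GFPneg range.

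Il2 was the cytokine gene that fell. It encodes IL-2, the T cell growth factor, which restrains Th17 differentiation through STAT5. It had 214, 119.8 and 163 TPM in GFPpos and 712, 373 and 789 TPM in GFPneg, and the sorts did not overlap. The means were 165 ± 47.0 TPM in GFPpos and 625 ± 222 TPM in GFPneg (SD, n = 3 each), and the log2 change was -1.88 ± 0.29 (95% interval -2.51 to -1.25, limma adjusted p = 0.0238). The call held without GFPpos replicate 1 (0.0426) or GFPneg replicate 2 (0.00815) and was lost without any of the other 4 libraries, with adjusted p of 0.0637 to 0.104 and log2 changes of -1.67 to -1.88. Il2ra, the high-affinity IL-2 receptor chain, did not pass and its sorts overlapped, with 207, 243 and 268 TPM in GFPpos and 191, 165 and 209 TPM in GFPneg.

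Of 27 effector cytokine genes listed, 14 were tested. The 5 above were the members called (0.379% of all genes tested), and the median log2 change of the 14 was 0.43, against 0.0723 for all genes tested. This list was written with earlier results of these data known, as were all lists used here. Il21 had 36.9, 29.6 and 89.8 TPM in GFPpos and 33.5, 24.6 and 43.9 TPM in GFPneg, a log2 change of 0.47 (95% interval -0.34 to 1.28, limma adjusted p = 0.742). Tnf lay at 18.04 to 28.4 TPM in GFPpos and 19.4 to 20.0 TPM in GFPneg (limma adjusted p = 0.876). Il9, a cytokine of Th9 cells, varied among libraries, with 5.6, 0.91 and 10.4 TPM in GFPpos and 0, 1.25 and 21.9 TPM in GFPneg (limma adjusted p = 0.911). The remaining 13 were below the filter, and in a table without counts a 0 can be a failed estimate. Csf2, which encodes GM-CSF, Il4, Il5 and Il1b were listed at 0 in all 6 libraries. Ifng was listed at 0 apart from 0.3 TPM in GFPpos replicate 2 and 0.9 TPM in GFPneg replicate 3, and Il10 apart from 0.29 TPM in GFPpos replicate 3.

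**Figure D2:**
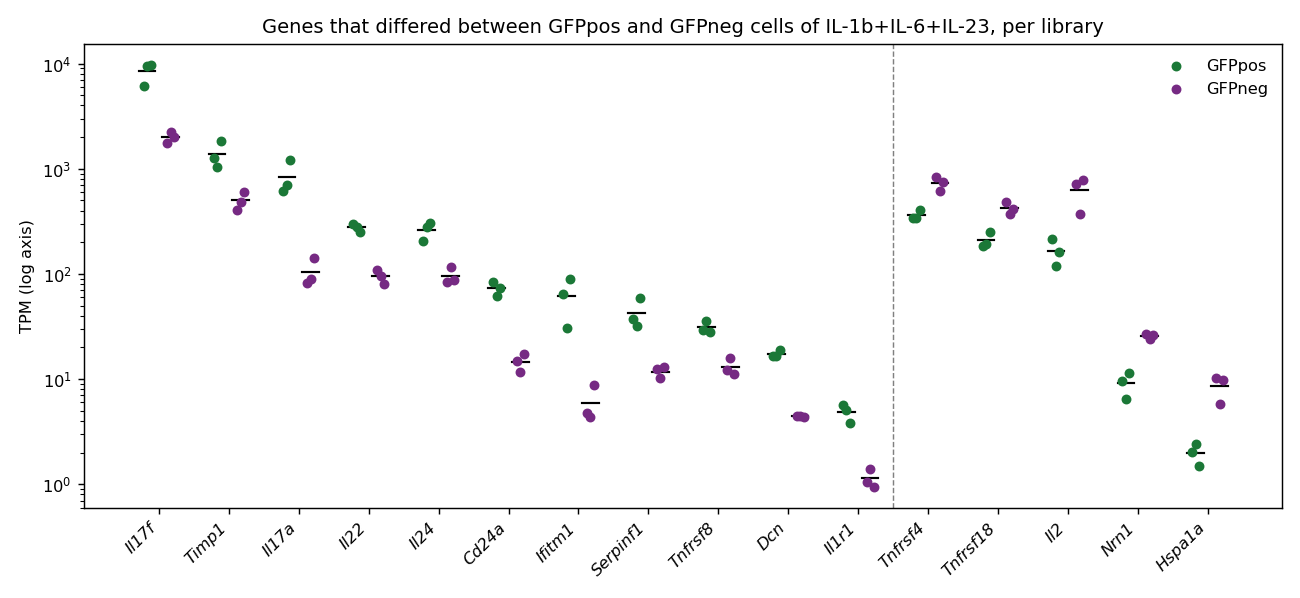
TPM on a log axis of 16 called genes in each of the 6 libraries, GFPpos (green) left of GFPneg (purple), with a bar at each mean. Left of the dashed line are 11 genes that rose and right of it 5 that fell, and in none of the 16 do the sorts overlap. Il17f reaches 9681 TPM in GFPpos, whereas Il1r1 lies at 3.79 to 5.65 TPM in GFPpos.

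Of the receptors for the cytokines in the medium, Il1r1 rose beside the sorting marker Il23r. Il1r1, the signalling receptor for IL-1, had 5.65, 5.06 and 3.79 TPM in GFPpos and 1.06, 1.4 and 0.95 TPM in GFPneg, a log2 change of 1.44 ± 0.25 (limma adjusted p = 0.0388). This call was lost in each of the 6 fits with 1 library left out (0.0827 to 0.202) and under median-ratio scaling. Il1r2, the decoy receptor for IL-1, was much more abundant, with 176, 207 and 159 TPM in GFPpos and 106, 85.2 and 95.6 TPM in GFPneg, and missed the threshold (log2 change 0.91, limma adjusted p = 0.0535). The antagonist gene Il1rn had 16.8, 14.2 and 27.2 TPM in GFPpos against 7.15, 7.11 and 7.84 TPM in GFPneg and missed it too (0.0856). The GFPpos values of these 3 genes lay above the GFPneg values, but the sorts overlapped for others of the IL-1 family. Il1rap, the IL-1 co-receptor, had 0.19, 0.68 and 0.52 TPM in GFPpos and 0.36, 0.29 and 0.43 TPM in GFPneg. Il1rl2, the IL-36 receptor, had 1.37, 1.05 and 0.74 TPM in GFPpos and 0.46, 0.24 and 1.57 TPM in GFPneg, and Il1a had 0.45, 0 and 0 TPM in GFPpos and 1.35, 0 and 0.69 TPM in GFPneg.

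Il12rb1, the other chain of the IL-23 receptor, had 13.9, 15.1 and 18.02 TPM in GFPpos and 23.6, 13.9 and 14.1 TPM in GFPneg. The sorts overlapped, and the 95% interval of the log2 change ran from -0.63 to 0.45 (limma adjusted p = 0.939). Il6ra, the IL-6 receptor, was at 1.22 to 1.65 TPM in GFPpos and 0.67 to 1.01 TPM in GFPneg (log2 change 0.44, 95% interval -0.11 to 0.98, limma adjusted p = 0.621). Il7r, the IL-7 receptor, had 10.6, 12.9 and 15.8 TPM in GFPpos against 3.18, 6.9 and 7.83 TPM in GFPneg and did not pass (0.259). Of 27 cytokine receptor genes tested, 2 rose (Il23r and Il1r1) and 0 fell, against 0.296% and 0.0828% of all genes tested. All GFPpos values lay above all GFPneg values for 9 of the 27, the sorting marker Il23r among them (9.93% of all genes tested). The median log2 change of the 27 was 0.2.

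Rora, the nuclear receptor of Th17 cells named above, had 16.5, 20.9 and 23.4 TPM in GFPpos and 9.83, 9.57 and 13.2 TPM in GFPneg, a log2 change of 0.84 that did not pass (limma adjusted p = 0.229). Its GFPpos values all lay above its GFPneg values. Of 35 lineage transcription factors tested, 0 were called in either direction by limma and the median log2 change was 0.02. An unadjusted p under 0.05 was found for 7 of them (9.36% of all genes tested).

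The nearest to the threshold was Id2, an inhibitor of E protein transcription factors, with 401, 421 and 431 TPM in GFPpos and 231, 268 and 228 TPM in GFPneg (log2 change 0.79, limma adjusted p = 0.0509). Gata3, the Th2 factor, had 1.6, 1.52 and 1.93 TPM in GFPpos and 7.95, 4.22 and 3.96 TPM in GFPneg (log2 change -1.2, limma adjusted p = 0.153). Tbx21, the Th1 factor T-bet, lay at 0.26 to 2.33 TPM in GFPpos and 0.36 to 3.38 TPM in GFPneg, with overlapping sorts (95% interval -1.2 to 0.81). Foxp3, the regulatory T cell factor, was listed at 0 in GFPpos and at 0.46, 0.24 and 0.82 TPM in GFPneg. Maf was at 1.17, 0.89 and 1.79 TPM in GFPpos and 0.24, 0.37 and 0.63 TPM in GFPneg. Both were below the filter and were not tested.

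Over the Th17 program as a whole, 5 of 18 tested genes rose (Il17a, Il17f, Il22, Il23r and Il1r1), 0 fell, and the median log2 change was 0.47. Of all genes tested, 0.296% rose and 0.0828% fell. Il23r is the sorting marker and counts for nothing here. All GFPpos values lay above all GFPneg values for 7 of the 18, Il23r among them (9.93% of all genes tested), and below for 0 (4.91%). Ccr6, the chemokine receptor of Th17 cells, had 46.9, 48.4 and 58.5 TPM in GFPpos and 33.3, 29.2 and 49.9 TPM in GFPneg and did not pass (limma adjusted p = 0.556). Of 15 tested genes described for pathogenic Th17 cells, 2 rose (Il22 and the sorting marker Il23r) and 0 fell, with a median log2 change of -0.08. In that list Gzmb, a cytotoxic granule protease, had 0.49, 2 and 2.12 TPM in GFPpos and 5.91, 6.95 and 7.48 TPM in GFPneg and just missed the threshold (limma adjusted p = 0.0524). Ccl4, which encodes a chemokine for monocytes and T cells, had 6.27, 4.64 and 4.87 TPM in GFPpos against 8.71, 15.6 and 21.4 TPM in GFPneg (0.144).

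Costimulatory receptors of the TNF receptor family split. Tnfrsf4, which encodes OX40, had 340, 339 and 402 TPM in GFPpos and 836, 612 and 742 TPM in GFPneg. Tnfrsf18, which encodes GITR and lies beside Tnfrsf4 on the plus strand of chromosome 4 (156013843 to 156016612 for Tnfrsf4 and 156026164 to 156028895 for Tnfrsf18), had 185, 192 and 252 TPM in GFPpos and 479, 372 and 413 TPM in GFPneg. Both fell by 1.01 on the log2 scale, with SE of 0.16 and 0.17 and limma adjusted p of 0.0268 and 0.0377. Tnfrsf8, which encodes CD30, rose, with 29.6, 35.5 and 27.9 TPM in GFPpos and 12.2, 16.01 and 11.3 TPM in GFPneg (log2 change 1.18 ± 0.21, limma adjusted p = 0.0444).

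These 3 calls were close to the threshold. With 1 library left out the Tnfrsf4 call held without GFPneg replicate 2 (0.0488) and the Tnfrsf18 call without GFPpos replicate 3 (0.0448), and each was lost in the other 5 fits. The Tnfrsf8 call was lost in all 6 (0.0684 to 0.243) and under median-ratio scaling. Of 25 tested members of the family, 1 rose (0.296% of all genes tested), 2 fell (0.0828%) and the median log2 change was -0.24. GITR and OX40 are also high on regulatory T cells. Of 9 tested genes of the regulatory T cell program Tnfrsf18 alone was called (0.379% of all genes tested), with a median of -0.07. All GFPpos values lay below all GFPneg values for 3 of the 9 (4.91% of all genes tested) and above for 0 (9.93%). Foxp3, below the filter, was listed at 0 in GFPpos and at 0.46, 0.24 and 0.82 TPM in GFPneg. Any part of regulatory T cells in the 2 falls was not tested.

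Ifitm1 rose by more on the log2 scale than any other called gene apart from the reporter row. It encodes an interferon-induced membrane protein that blocks virus entry, and had 64.5, 30.5 and 88.8 TPM in GFPpos and 4.79, 4.33 and 8.77 TPM in GFPneg (log2 change 3.09 ± 0.37, limma adjusted p = 0.0051). The gene occupies 140967221 to 140969825 of chromosome 7 (plus strand). Relatives lay higher by less and did not pass. Ifitm3 had 249, 155 and 269 TPM in GFPpos against 89.4, 107.8 and 133 TPM in GFPneg (log2 change 1.0, 0.141), and Ifitm2 had 251, 162 and 267 TPM in GFPpos against 154, 155 and 173 TPM in GFPneg (log2 change 0.47, 0.508).

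Most other interferon-stimulated genes had log2 changes below 0. Of 34 tested, 0 were called by limma and 7 had an unadjusted p under 0.05 (9.36% of all genes tested). A log2 change above 0 was found for 3 of the 34 (5053 of all 8453 genes tested). The median was -0.31. All GFPpos values lay below all GFPneg values for 8 (4.91% of all genes tested) and above for 1 (9.93%). Their summed TPM was 7906 to 8259 in GFPpos and 10273 to 11124 in GFPneg, and most of it came from Ifi27l2a, with 4936, 4650 and 3993 TPM in GFPpos and 5921, 6948 and 6681 TPM in GFPneg (limma adjusted p = 0.179). Xaf1, an inhibitor of XIAP, had 315, 326 and 359 TPM in GFPpos against 725, 479 and 411 TPM in GFPneg (0.329). The 14 MHC class I genes had a median of -0.45 with 0 calls and 6 unadjusted p under 0.05 (9.36% of all genes tested). The median ran from -0.57 to -0.22 over the alternatives. GFPneg replicate 1 had the highest sum of the 6 libraries. With or without it the sums of the sorts overlapped (up to 26963 TPM in GFPpos, against 29414 and 26439 TPM in GFPneg replicates 2 and 3).

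Cd24a, which encodes a small glycosylphosphatidylinositol-anchored sialoglycoprotein, had 83.5, 61.7 and 74.3 TPM in GFPpos and 14.8, 11.8 and 17.2 TPM in GFPneg (log2 change 2.25 ± 0.21, limma adjusted p = 0.000815). The gene occupies 43578284 to 43584265 of chromosome 10 (plus strand). It was the 1 call among 21 tested integrins and adhesion molecules (0.379% of all genes tested), whose median was 0.08. Dcn, which encodes the matrix proteoglycan decorin, had 16.6, 16.5 and 18.9 TPM in GFPpos and 4.46, 4.46 and 4.34 TPM in GFPneg (1.76 ± 0.21, 0.00475). Timp1, an inhibitor of matrix metalloproteinases, was abundant in both sorts, with 1267, 1051 and 1856 TPM in GFPpos and 410, 483 and 605 TPM in GFPneg (1.45 ± 0.22, 0.0218). The Cd24a and Dcn calls held in all 6 fits with 1 library left out. The Timp1 call held only without GFPpos replicate 2 (0.0194) or GFPneg replicate 3 (0.0346).

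Serpinf1 and Crispld2 rose too. Serpinf1, which encodes the antiangiogenic serpin PEDF, had 37.4, 32.1 and 58.8 TPM in GFPpos and 12.4, 10.1 and 12.9 TPM in GFPneg (log2 change 1.73, limma adjusted p = 0.0152). Crispld2, which encodes a secreted cysteine-rich protein, had 30.0, 40.5 and 29.3 TPM in GFPpos and 11.6, 10 and 8.77 TPM in GFPneg (1.62, 0.0115). The Serpinf1 call was lost without GFPpos replicate 1 (0.0547) or GFPneg replicate 2 (0.0703), and the Crispld2 call without GFPpos replicate 2 (0.0668). Nrn1, which encodes the membrane-anchored neuritin, fell, with 9.54, 6.44 and 11.3 TPM in GFPpos and 27.0, 23.8 and 26.3 TPM in GFPneg (-1.43, 0.0292), and held only without GFPpos replicate 3 (0.0495).

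Ccr7, the receptor that brings T cells into lymph nodes, had 510, 542 and 817 TPM in GFPpos and 1377, 1104 and 1260 TPM in GFPneg. It was about as far apart as the TNF receptors (log2 change -1.03 ± 0.19) and missed the threshold (limma adjusted p = 0.0512). Of 14 tested naive and central memory genes, 0 were called by limma and 5 had an unadjusted p under 0.05 (9.36% of all genes tested). A log2 change above 0 was found for 4 of the 14 (5053 of all 8453 genes tested). The median was -0.24 (-0.3 to -0.04 over the alternatives). All GFPpos values lay below all GFPneg values for 2 (4.91% of all genes tested) and above for 3 (9.93%). S1pr1, the receptor for exit from lymph nodes, was higher in GFPpos, with 14.8, 11.2 and 13.7 TPM against 6.49, 4.64 and 7.78 TPM in GFPneg (0.98, 0.179).

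Single metabolic genes rose, and most of the genes of their pathways did not pass. Of all genes tested, 0.379% were called. Dgat1, which makes triglycerides, had 79.4, 93.8 and 85.1 TPM in GFPpos and 42.1, 42.2 and 35.6 TPM in GFPneg (log2 change 1.09, limma adjusted p = 0.0268), the 1 call among 20 tested fatty acid and triglyceride genes (median 0.23). Mt1, a metal-binding metallothionein, had 1488, 1088 and 1332 TPM in GFPpos and 663, 621 and 789 TPM in GFPneg (0.91, 0.0416), the 1 call among 19 metallothionein and redox genes (median 0.17). Gatsl3, named Castor1 in current annotation and an arginine sensor upstream of mTORC1, had 18.9, 21.5 and 26.8 TPM in GFPpos and 6.52, 8.48 and 7.45 TPM in GFPneg (1.46, 0.0218). Atp6v0d2, a subunit of the proton pump of lysosomes, had 21.8, 15.2 and 26.6 TPM in GFPpos and 5.55, 4.41 and 8.09 TPM in GFPneg (1.66, 0.0304).

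These metabolic calls were not firm. With 1 library left out, Dgat1 held only without GFPneg replicate 1 (0.0472), Gatsl3 only without GFPneg replicate 1 (0.0472) or GFPneg replicate 2 (0.0488), and Atp6v0d2 only without GFPpos replicate 2 (0.0448) or GFPneg replicate 3 (0.0346), and Mt1 held in 0 of 6 and not under median-ratio scaling. Mt2, another metallothionein, had 456, 234 and 313 TPM in GFPpos against 130.3, 107.5 and 195 TPM in GFPneg and did not pass (0.115). Gatsl3 was the 1 call among 20 tested amino acid transport and mTORC1 genes (0.379% of all genes tested). The list's median, -0.27, had the opposite sign. In it Slc3a2, the heavy chain of large neutral amino acid transporters, had 173, 228 and 227 TPM in GFPpos and 375, 296 and 304 TPM in GFPneg (-0.64, 0.243).

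Of 25 cholesterol synthesis genes, 0 were called by limma, 20 had a log2 change above 0 (5053 of all 8453 genes tested) and the median was 0.21. An unadjusted p under 0.05 was found for 7 of them (9.36% of all genes tested). The sorts did not overlap for 7, all higher in GFPpos (9.93% of all genes tested). Mvd, of the mevalonate pathway, had 50.1, 57.1 and 51.3 TPM in GFPpos and 38.4, 32.8 and 32.8 TPM in GFPneg (limma adjusted p = 0.292), and Msmo1, a sterol oxidase, had 67.3, 74.6 and 87.2 TPM in GFPpos against 45.8, 53.7 and 53.7 TPM in GFPneg (0.33). Of 24 glycolysis genes, 0 were called by limma and 4 had an unadjusted p under 0.05 (9.36% of all genes tested). Of the same 24, 21 had a log2 change above 0 (5053 of all 8453 genes tested), and the median was 0.18. DNA replication and mitosis genes, which mark dividing cells, had 0 calls by limma among 42 and a median of -0.08. An unadjusted p under 0.05 was found for 1 of the 42 (9.36% of all genes tested). Replication-linked histone genes had 0 calls among 34, 8 unadjusted p under 0.05 (9.36% of all genes tested) and a median of -0.1 (-0.39 to 0.18 over the alternatives). All GFPpos values lay below all GFPneg values for 5 (4.91%) and above for 1 (9.93%). Their summed TPM was 1710 to 2474 in GFPpos and 2822 to 5171 in GFPneg, highest in GFPneg replicate 1. Ribosomal protein genes had 0 calls and 0 unadjusted p under 0.05 among 86, and a median of 0.02.

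Among chaperone genes, 1 passed, and it fell. Hspa1a, a stress-induced HSP70, had 2.02, 2.44 and 1.5 TPM in GFPpos and 10.1, 5.86 and 9.86 TPM in GFPneg (log2 change -1.67 ± 0.27, limma adjusted p = 0.0294), and its call held only without GFPneg replicate 2 (0.0317). Its near-identical copy Hspa1b was listed at 0 apart from 0.72 TPM in GFPneg replicate 3, and their reads may be split. Of 21 tested chaperone genes, 1 fell (0.0828% of all genes tested), 0 rose and 9 had an unadjusted p under 0.05 (9.36%). A log2 change above 0 was found for 2 of the 21 (5053 of all 8453 genes tested). All GFPpos values lay below all GFPneg values for 10 (4.91% of all genes tested) and above for 1 (9.93%). The median was -0.35. Hspa5, the chaperone BiP of the endoplasmic reticulum, had 305, 419 and 591 TPM in GFPpos and 728, 653 and 929 TPM in GFPneg (0.247), and Hsph1, an HSP110, had 35.4, 50.2 and 58.4 TPM in GFPpos against 97.7, 65.5 and 86.5 TPM in GFPneg (0.272).

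**Figure D3:**
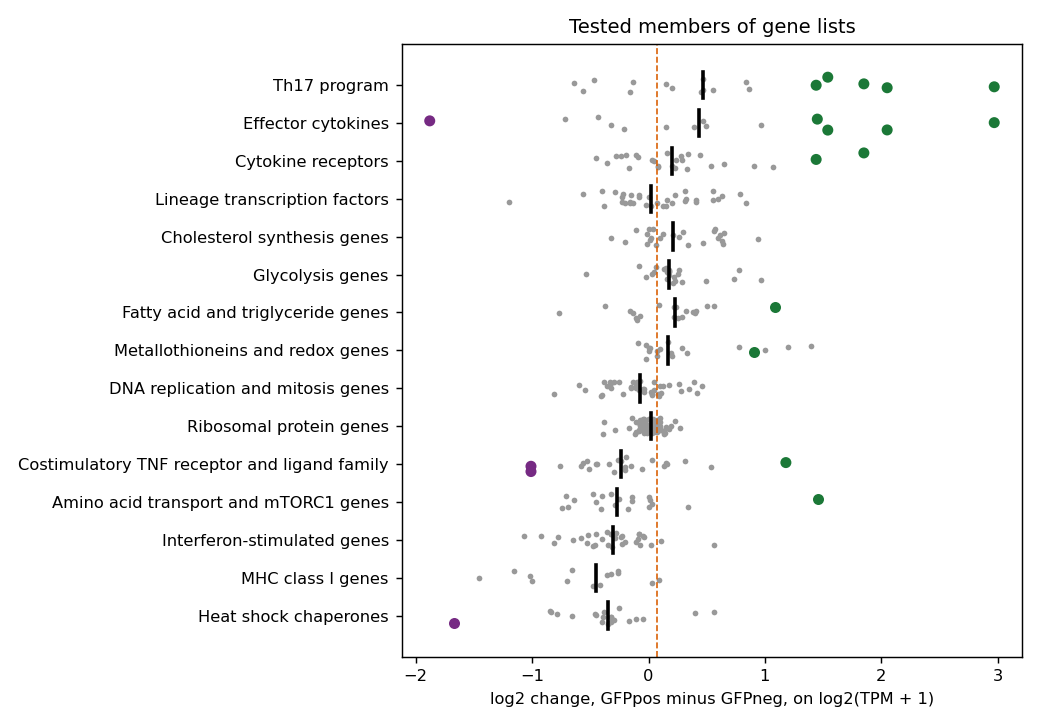
Log2 change of GFPpos minus GFPneg for each tested member (points) of 15 gene lists, with a black bar at each list's median and a dashed line at the median of all genes tested. Green and purple points are members called higher and lower in GFPpos. Medians run from 0.47 for the Th17 program to -0.45 for MHC class I genes, and most members of every list are grey.

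The remaining calls include 2 rows that the table names without saying what they hold. TDTOMATO had 116, 139 and 188 TPM in GFPpos and 28.6, 26.1 and 24.7 TPM in GFPneg (log2 change 2.41 ± 0.20, limma adjusted p = 0.000815), and ICRE had 6.01, 9.3 and 12.1 TPM in GFPpos and 1.88, 0 and 1.06 TPM in GFPneg (2.44 ± 0.39, 0.0268). TDTOMATO was called in all 6 fits with 1 library left out and ICRE only without GFPneg replicate 1 (0.0147). Lars2, the mitochondrial leucyl-tRNA synthetase, fell, with 55.1, 69.3 and 54.4 TPM in GFPpos and 114.3, 170 and 123 TPM in GFPneg (-1.16, 0.0377), and was not called under median-ratio scaling.

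Another 6 calls lie outside the naming rule and are given after their values were seen. Mbnl3, a splicing regulator, Gnpda2, an enzyme of glucosamine metabolism, and Upp1, a uridine phosphorylase, rose by 1.40, 1.25 and 1.24 on the log2 scale (limma adjusted p of 0.0115, 0.0377 and 0.0257). The other three were low. The receptor segment Trav10 had 2.41, 6.18 and 2.11 TPM in GFPpos and the pseudogene Clec2f 1.68, 2 and 1.4 TPM, and both were listed at 0 in GFPneg. Both met the filter through the GFPpos libraries alone, which favours separate sorts. They are among the 25 rises but count for nothing here. The processed pseudogene Gm12338 was listed at 0, 0 and 1.92 TPM in GFPpos and had 10.2, 5.22 and 5.69 TPM in GFPneg. With 1 library left out, Mbnl3 was lost without GFPpos replicate 1 (0.0544) or GFPpos replicate 2 (0.0706). Gnpda2 held only without GFPneg replicate 1 (0.0447), Upp1 only without GFPpos replicate 1 (0.027) and Gm12338 only without GFPpos replicate 3 (0.0134). Trav10 and Clec2f were lost in all 6 such fits. Without GFPneg replicate 1 the adjusted p was 0.0508 for Upp1, 0.0702 for Trav10, 0.0838 for Clec2f and 0.115 for Gm12338.

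Leaving out 1 library at a time sorted the calls by firmness. Of the 32, 9 were called in all 6 such fits, namely EGFP_IRES_IL23R, Il23r, Il17a, Il17f, Il22, Ifitm1, Cd24a, Dcn and TDTOMATO. A further 1 held in 5 fits, 3 in 4, 4 in 2 and 10 in 1, and 5 held in 0. None of the 7 genes that fell held in more than 2. Every one of the 32 kept its direction in each of these fits. This could not have been otherwise, as the sorts did not overlap for any of the 32. The number called was 15, 13 and 16 without GFPpos replicates 1 to 3 and 24, 19 and 25 without GFPneg replicates 1 to 3, so leaving out the library that stood apart gave one of the higher counts.

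**Figure D4:**
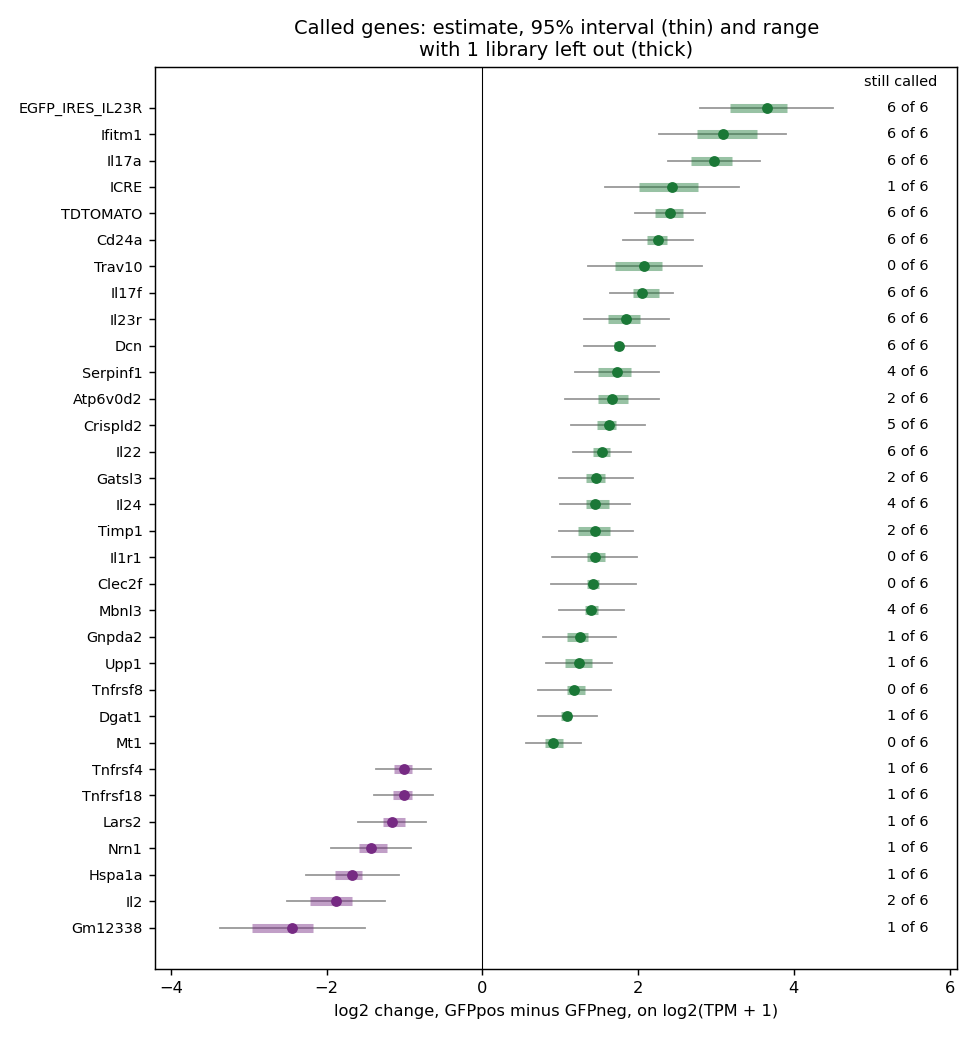
Log2 change of GFPpos minus GFPneg for the 32 called genes (points), with the 95% interval as a thin line and the range over 6 fits with 1 library left out as a thick bar. The numbers at the right count the fits in which the gene was still called, which is 6 of 6 for Il17a, Il17f, Il22, Cd24a, Dcn and Ifitm1 and at most 2 of 6 for the 7 genes that fell.

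The same sort was made in IL-12+IL-21, a culture with IL-12 and IL-21 at 20 ng/ml each and otherwise the same genotype, antibodies and time, and it shares no library with the 6. Its GFPneg replicate 3, with 1331 genes above 0, was left out. No gene passed limma's test of the difference between the GFP effects of the 2 cultures (0 of 9255 genes, 0%, with 469 at an unadjusted p under 0.05), so this fit shows no change to be particular to IL-1b+IL-6+IL-23. With the left-out library there were 0 calls and 212 genes at an unadjusted p under 0.05. In 11 libraries, the effects on Il17a differed by 2.70 ± 0.52 (95% interval 1.58 to 3.82, limma adjusted p = 0.512). With the replicate number as a block, which the data do not show to pair the samples, this difference was called (3.1, limma adjusted p = 0.00631). It was near 0 in IL-12+IL-21, at 0.46, 0.54 and 2.47 TPM in GFPpos and 0.43 and 0.89 TPM in GFPneg.

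Other genes were well above 0 in both cultures. Il24 had 57.1, 58.1 and 59.7 TPM in GFPpos of IL-12+IL-21 and 49.9 and 60.6 TPM in GFPneg, with overlapping sorts, and the difference between the effects was 1.36 ± 0.28 (0.512). Tnfrsf4 had 884, 761 and 848 TPM in GFPpos of IL-12+IL-21 and 1021 and 854 TPM in GFPneg, and Tnfrsf18 had 756, 773 and 763 TPM in GFPpos and 829 and 774 TPM in GFPneg. Their effects differed by -0.84 ± 0.22 (limma adjusted p = 0.548) and -0.94 ± 0.22 (0.512).

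Some genes lay on the same side in both cultures. Il17f and Il22 did so at low levels. Il17f had 5.44, 3.24 and 6.19 TPM in GFPpos of IL-12+IL-21 and 1.7 and 0.59 TPM in GFPneg. Il22 had 6.5, 17.3 and 2.45 TPM in GFPpos and 0 and 1.62 TPM in GFPneg. Neither passed within IL-12+IL-21 (limma adjusted p of 0.0988 and 0.0661). Their effects differed by 0.56 (95% interval -0.25 to 1.37) and -0.73 (-2.24 to 0.78). Within IL-12+IL-21, Cd24a (limma adjusted p = 0.0123), Timp1 (0.00741), Atp6v0d2 (0.00632) and Mt1 (0.0109) rose in GFPpos cells, and Ifitm1 (0.057) and Il2 (0.203) did not pass. Cd24a had 32.8, 27.0 and 51.9 TPM in GFPpos of IL-12+IL-21 and 11.8 and 9.11 TPM in GFPneg, and its effects differed by 0.56 (95% interval -0.24 to 1.36). Ifitm1 had 17.8, 10.3 and 21.6 TPM in GFPpos of IL-12+IL-21 and 5.27 and 4.22 TPM in GFPneg, and its effects differed by 1.53 (0.32 to 2.73, limma adjusted p = 0.915). Timp1 had 827, 667 and 1218 TPM in GFPpos of IL-12+IL-21 and 403 and 334 TPM in GFPneg (0.2, -0.57 to 0.97), and Atp6v0d2 had 32.0, 26.7 and 55.6 TPM in GFPpos and 8.62 and 8.91 TPM in GFPneg (-0.27, -1.23 to 0.69). Mt1 had 921, 1007 and 1011 TPM in GFPpos of IL-12+IL-21 and 528 and 498 TPM in GFPneg (-0.02, -0.48 to 0.43). Il2 had 51.0, 36.2 and 106.9 TPM in GFPpos of IL-12+IL-21 and 270 and 78.2 TPM in GFPneg, with overlapping sorts, and its effects differed by -0.57 (-2.02 to 0.88). None of these differences passed, and the intervals do not show that the effects were alike.

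**Figure D5:**
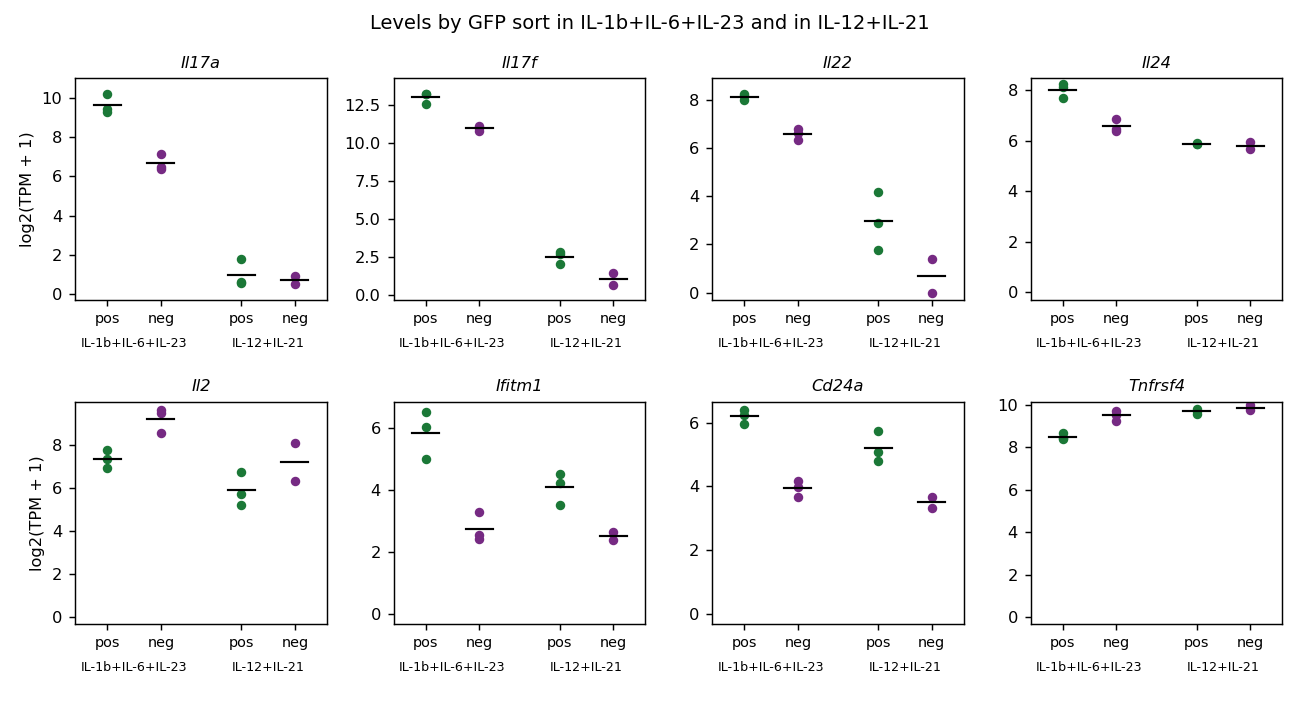
Log2(TPM + 1) of 8 genes by library, with GFPpos (pos, green) left of GFPneg (neg, purple), for IL-1b+IL-6+IL-23 and for IL-12+IL-21 without its GFPneg replicate 3. Bars are means. Il17a and Il17f are low in both sorts of IL-12+IL-21, whereas Cd24a is higher in GFPpos in both cultures.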

How the data were processed

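RNA of sorted CD4 T cells was sequenced in 21 libraries with SMART-Seq2 and paired-end reads, per the labels' protocols. The authors deposited 1 table of TPM values for 23415 gene symbols, which hold no read counts, so the depth behind a value is unknown and no counting interval is given. Trimmomatic 0.32, Bowtie2 2.2.9, RSEM 1.2.31 and build GRCm38 are named per the submitters' processing notes, and their settings, the annotation and the use of strand are not given in the sources used here. Because TPM values are shares of a library, a rise of some transcripts lowers others, and a value of 0 can be a failed estimate. Close copies and overlapping genes may share reads.

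GENCODE M21 held 22434 of the symbols, RefSeq synonyms placed another 435, and 546 found no match. Genes with at least 1 TPM in at least 3 of the 6 IL-1b+IL-6+IL-23 libraries entered a limma fit (limma 3.58.1, R 4.3.3) of log2(TPM + 1), a scale that understates changes of low genes. It modelled group means without a block, moderated the variances with a trend, and adjusted by Benjamini-Hochberg over all 8453 genes, with a threshold of 0.05. The code was tested on simulated data. The comparison with IL-12+IL-21 was an interaction contrast in 11 libraries. The labels do not say whether equal replicate numbers share a mouse or culture. Correlations between the sorts of deviations from group means were -0.0662, 0.0261 and 0.124 for equal numbers and -0.14 to 0.0961 for unequal ones. With 3 libraries a sort, they cannot decide whether the samples are paired.

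The text names the 15 largest rises and the 15 largest falls among called genes whose log2 change is at least 1 in size, whose sorts do not overlap and whose higher sort averages at least 5 TPM, leaving out predicted genes and receptor segments. It adds up to 5 members of smallest p of each of 38 gene lists and a fixed set of Th17 and related genes. The members and lists were chosen with earlier results of these data known. Lists are described by counts and medians, with no set test. The alternatives were pseudocounts of 0.1 and 5 TPM, no filter or a minimum of 5 TPM, median-ratio or quantile scaling, a replicate block, array weights, no trend, a robust fit, 16 or all 21 libraries in the fit, and each library left out in turn. RefSeq windows and motifs were read by exact match on both strands.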

Additional observations from a re-analysis of the deposited data

How the results depend on the processing

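All 32 called genes kept their direction under every alternative in which they were tested. Their sorts did not overlap, so only median-ratio and quantile scaling could have turned a direction. The other alternatives say nothing about it. The number called was 22 (18 higher and 4 lower in GFPpos) with a pseudocount of 0.1 TPM, 45 with 5 TPM, 10 (9 and 1) without a filter on low values, when 13565 genes were tested, 40 with a minimum of 5 TPM, 31 with median-ratio scaling and 34 with quantile normalization. With the replicate number as a block it was 62 (44 and 18), including all 32 calls. Whether the numbers pair the samples is not known. The number called was 52 (39 and 13) with array weights, 20 (18 and 2) with no trend and 50 (40 and 10) with a robust fit. It was 44 with 16 libraries in the fit and 4 (4 and 0) with all 21. With 1 library left out it ran from 13 to 25 (12 to 23 higher and 1 to 4 lower). Where a count moved, the cause was not tested. Of the 32 calls, 28 were shared with median-ratio scaling, and Il1r1, Tnfrsf8, Mt1 and Lars2 were not.

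The test of the difference between cultures gave 0 calls, and 2 with a replicate block, namely Il17a (3.1, limma adjusted p = 0.00631) and Oaz1-ps (7.13, 0.016). With 1 library left out it gave 0 to 1, TRNE without GFPneg replicate 1 of IL-1b+IL-6+IL-23 (-7.11, 0.000119) and TDTOMATO without GFPpos replicate 3 of IL-12+IL-21 (2.5, 0.0342). With all 12 libraries and with median-ratio scaling it gave 0. The median of the effector cytokines ran from -0.02 to 0.61 over the alternatives, that of the Th17 program from 0.29 to 0.68, that of the pathogenic Th17 genes from -0.21 to 0.24, that of the chemokines from -0.63 to -0.04 and that of the T cell receptor response genes from -0.38 to -0.01. TPM values keep no depth, so the precision of low values is unknown, and 3 libraries a sort limit what can be called.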

Other observations

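Of 9 tested chemokine genes, 0 were called by limma and 2 had an unadjusted p under 0.05 (9.36% of all genes tested). A log2 change above 0 was found for 2 of the 9 (5053 of all 8453 genes tested), and the median was -0.51. Ccl5, a chemokine for T cells and monocytes, had 135, 120.0 and 86.9 TPM in GFPpos and 180, 167 and 175 TPM in GFPneg (limma adjusted p = 0.301). Of 26 tested genes that answer T cell receptor signals, 0 were called by limma and 3 had an unadjusted p under 0.05 (9.36% of all genes tested did), with a median of -0.16. Nr4a1, an early nuclear receptor of that response, had 44.99, 71.0 and 67.8 TPM in GFPpos and 105.6, 93.4 and 102.2 TPM in GFPneg (0.255), whereas Dusp6, a phosphatase that dampens ERK, had 16.9, 10.9 and 25.0 TPM in GFPpos and 8.61, 5.38 and 8.36 TPM in GFPneg (0.255).

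HMG proteins and histone variants had 0 limma calls among 20 genes, 5 unadjusted p under 0.05 (9.36% of all genes tested) and a median of -0.21. All GFPpos values lay below all GFPneg values for 6 of the 20 (4.91% of all genes tested) and above for 2 (9.93%). Hmgb2, a chromatin protein high in dividing cells, had 18.8, 18.2 and 20.1 TPM in GFPpos and 26.6, 29.2 and 24.9 TPM in GFPneg (limma adjusted p = 0.468), and Hmgn3, a nucleosome-binding protein, had 88.9, 53.1 and 54.4 TPM in GFPpos and 42.1, 37.7 and 37.2 TPM in GFPneg (0.336). In TGFb+IL-6, a culture whose libraries differ in quality, Il2 was at 65.6 TPM in GFPpos replicate 1 and at 287 and 199 TPM in GFPneg replicates 1 and 2. GFPpos replicate 2 of that culture, with 59.6% of its TPM in ribosomal protein genes, had 14.2 TPM, and its replicates 3 of both sorts, with 1157 and 191 genes above 0, were listed at 0 for Il2. Other genes that fell in IL-1b+IL-6+IL-23 were mixed in GFPpos replicate 1 against GFPneg replicates 1 and 2 of TGFb+IL-6. Lars2 lay lower (20.1 against 327 and 254 TPM). Hspa1a (53.6 against 7.1 and 5.04 TPM) and Nrn1 (31.6 against 12.65 and 8.5 TPM) lay higher. Tnfrsf4 (818 against 698 and 751 TPM) and Tnfrsf18 (587 against 393 and 479 TPM) lay higher too. These values rest on 1 GFPpos library, and no test was made in that culture.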
